A study of Mus musculus with 6 samples.

Results

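Alveolar macrophages are the resident phagocytes of the air spaces, and 9 genes known from these cells in mice (Marco, Chil3, Ctsk, Mrc1, Pparg, Krt79, Fabp5, Fabp1 and Csf2ra) were followed in RNA from mouse lungs. Every probe set that the array's annotation assigned to exactly 1 gene symbol was taken if that symbol was among the 9. This gave 10 probe sets, of 45037 on the array besides its control probe sets, for 8 of the 9 genes. Csf2ra, the ligand-binding chain of the GM-CSF receptor, is not named as the only gene of any probe set in that annotation and was not analysed here.

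The lungs came from male BALB/c mice, aged 10 weeks when they were assigned to groups. The hydrogen group of 3 mice was kept for 3 weeks in air with hydrogen gas (2% hydrogen, 98% air). The control group of 3 mice was reared in normal air. No transgene, mutation or further agent is given for either group. RNA of each lung was hybridised to 1 array, so a replicate is a mouse, and the design asks which lung transcripts differ after the hydrogen exposure.

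These macrophages settle in the air spaces around birth, where GM-CSF from alveolar epithelial cells and TGF-beta induce the nuclear receptor PPAR-gamma, encoded by Pparg. PPAR-gamma in turn switches on the genes for lipid uptake and handling with which the cells clear used surfactant. They also take up inhaled particles and bacteria through scavenger receptors such as Marco and lectins such as the mannose receptor, encoded by Mrc1.

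Ctsk, Mrc1 and Pparg were lower in the hydrogen group, and none of the 10 probe sets was higher. Values are log2 signals, a difference is hydrogen minus control, and a probe set was called changed where the adjusted p was under 0.05 in limma, a linear model that shares the spread across probe sets. By that rule 0 of the 10 probe sets were higher, 3 were lower and 7 were not called. Over the whole array 24.3% of probe sets were higher and 22.8% lower, 47.1% in all, so the share of members called was not above that of the array. The 10 probe sets had a median difference of -0.10, against 0.02 for all probe sets. Counted by gene, 3 of 8 were lower and 0 higher, with a median of -0.17, while of all 17097 genes 26.4% were lower and 26.1% higher (52.5% in all, median 0.01). The groups did not overlap for 4 of the 10 probe sets, a state that held for 57.3% of all probe sets. In RNA from a whole tissue, fewer cells of a type and less RNA per cell cannot be told apart.

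The direction of change followed brightness over the whole array, and each member is therefore set beside probe sets of like brightness. Across 10 equal groups of probe sets ordered by mean value (brightness deciles, from 1, the dimmest, to 10), the median difference was highest at 0.15 in decile 4 and lowest at -0.23 in decile 9. The distributions of the arrays differed by group, with medians of 4.84 to 4.85 and SDs of 1.80 to 1.81 in the hydrogen group, and medians of 4.75 to 4.76 and SDs of 1.90 to 1.92 in the control group. Under a renewed quantile normalisation and under cyclic loess, which put all 6 arrays on 1 distribution or remove a trend with brightness, 35.5% and 35.3% of probe sets were called. As a check of the tissue, the surfactant gene Sftpc read 13.16, 13.16 and 13.19 in hydrogen lungs and 13.15, 13.16 and 13.14 in control lungs, close to the highest values on the arrays. With 3 mice a group, the smallest two-sided p of an exact permutation test is 0.1, which Ctsk, Mrc1, Pparg and 1 Fabp5 probe set reached.

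The sequences before the transcription starts of the 3 genes that were called are shown because these genes moved the same way. Each window holds the 250 bases before a RefSeq start on GRCm38.p6. Capitals mark GAGGAA, the core bound by the myeloid factor PU.1, and AGGTCA, the half-site bound by PPAR and other nuclear receptors, on either strand (TTCCTC and TGACCT on the other). The Ctsk window lies at chr3:95498960-95499209 on the plus strand and the Mrc1 window at chr2:14229164-14229413 on the plus strand. Pparg has 3 starts in the table, and the windows of the first 2 lie at chr6:115360894-115361143 and chr6:115362099-115362348 on the plus strand.
Ctsk: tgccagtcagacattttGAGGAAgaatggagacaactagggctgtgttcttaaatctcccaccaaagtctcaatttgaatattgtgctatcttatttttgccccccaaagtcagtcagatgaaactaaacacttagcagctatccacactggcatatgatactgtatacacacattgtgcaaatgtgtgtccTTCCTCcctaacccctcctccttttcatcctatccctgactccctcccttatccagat
Mrc1: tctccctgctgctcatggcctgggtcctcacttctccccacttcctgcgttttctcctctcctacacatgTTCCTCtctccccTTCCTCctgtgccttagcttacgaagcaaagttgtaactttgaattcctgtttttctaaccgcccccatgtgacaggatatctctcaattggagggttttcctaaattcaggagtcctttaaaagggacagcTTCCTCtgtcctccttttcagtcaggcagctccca
Pparg start 1: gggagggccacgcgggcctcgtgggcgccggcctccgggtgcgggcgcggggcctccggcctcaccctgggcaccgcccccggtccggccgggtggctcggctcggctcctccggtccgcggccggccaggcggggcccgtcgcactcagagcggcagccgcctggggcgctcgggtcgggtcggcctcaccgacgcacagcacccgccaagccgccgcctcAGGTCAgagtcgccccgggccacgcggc
Pparg start 2: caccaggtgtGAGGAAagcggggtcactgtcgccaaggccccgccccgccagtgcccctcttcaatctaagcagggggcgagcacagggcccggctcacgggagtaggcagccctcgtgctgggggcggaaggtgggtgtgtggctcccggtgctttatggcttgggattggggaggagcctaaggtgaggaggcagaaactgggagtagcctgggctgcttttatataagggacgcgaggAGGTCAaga

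Ctsk held 2 matches to the PU.1 core and Mrc1 held 3, with no match to the half-site in either. The first Pparg window held 1 half-site, the second held 1 of each motif, and the third held neither. RefSeq windows were found for 8 of the 9 genes, 10 windows in all, and Fabp5 was not in the table. The PU.1 core occurred in 6 of the 10 windows, against 23.3% of 32851 mouse windows of the same length, and the half-site occurred in 3 of 10, against 14% of all windows. Windows with the PU.1 core included those of Marco and Fabp1, which were not called, and of Csf2ra, which was not analysed. The Fabp1 window also held 2 half-sites. No base belonged to both motifs. A match describes these letters and is no evidence of binding.

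Ctsk, a cysteine protease of lysosomes that degrades collagen and elastin and is best known from osteoclasts, fell most among the 8 genes. Its probe set 1450652_PM_at read 6.05, 5.97 and 6.30 in hydrogen lungs and 6.88, 6.75 and 7.02 in control lungs. All 3 hydrogen lungs lay below all 3 control lungs, and the gap between the groups was wider than the spread within either. The means were 6.11 ± 0.17 in the hydrogen group and 6.88 ± 0.14 in the control group (SD, n = 3 each), a difference of -0.78 (SE 0.10, 95% interval -1.0 to -0.55) or a ratio of 0.584 in limma (adjusted p = 0.000781). Only 1.56% of all probe sets, and 4.33% of those in its brightness decile, had a difference as low or lower. Probe sets of that decile had a median of -0.18, and the difference of Ctsk was -0.61 after quantile normalisation and -0.62 after loess. It was called in all 14 alternative settings computed for it, from -0.87 to -0.61.

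Ctsk RNA also marks osteoclasts, bone-resorbing cells of the macrophage lineage. Of 7 measured osteoclast markers, 2 were higher, 1 was lower and 4 were not called, with a median of -0.04, which turned to 0.04 after quantile normalisation and 0.01 after loess. The counts of this and the later lists stand beside 26.1% of all genes called higher and 26.4% called lower. Tnfrsf11a, the receptor RANK, rose by 0.34 (adjusted p = 0.00666), while its other, dim probe set differed by 0.0033 without a call (adjusted p = 0.973 over probe sets). Ocstamp, needed for the fusion of osteoclast precursors, rose by 0.20 at a dim level (adjusted p = 0.0169). The call of Ocstamp was lost after quantile normalisation (adjusted p = 0.139) and without control replicate 2 (adjusted p = 0.0578). Nfatc1, the transcription factor that drives osteoclast genes, fell by 0.17 (adjusted p = 0.0497), but its sign turned after quantile normalisation (0.04) and after loess (0.01), and the call was lost without hydrogen replicate 1 or 3 or control replicate 1 or 2 (adjusted p = 0.109 to 0.138). Acp5, the tartrate-resistant acid phosphatase, read 5.89, 5.75 and 5.68 in hydrogen lungs and 5.78, 5.69 and 5.97 in control lungs, which overlapped. The mean of the list on each array was 5.16 to 5.22 in hydrogen lungs and 5.14 to 5.19 in control lungs, and its part in the difference of Ctsk was not tested.

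Other proteases of the lysosome did not move as 1 group. Of 10 measured cathepsins, related proteases and inhibitors, 3 were higher, 2 lower and 5 not called, with a median of -0.05, which turned to 0.08 after quantile normalisation and after loess and to 0.065 for the mean of each gene's probe sets. Ctss, the cathepsin of antigen-presenting cells, had a difference of 0.16 without a call (adjusted p = 0.0631) and was called after quantile normalisation (0.22, adjusted p = 0.0228). Ctsh, an aminopeptidase that also helps to process surfactant protein, had the next largest fall after Ctsk, with 9.81, 9.71 and 9.89 in hydrogen lungs and 10.17, 10.32 and 10.43 in control lungs (difference -0.50, SE 0.08, adjusted p = 0.00143). Ctsc, which activates serine proteases of granules, fell by 0.19 (adjusted p = 0.036) and lost the call after quantile normalisation (adjusted p = 0.253). Ctsz rose by 0.24, Ctsd by 0.23 and the protease inhibitor Cst3 by 0.20 (adjusted p = 0.0141, 0.0346 and 0.0208). For Ctsz, the mean of its probe sets gave a difference of 0.04 without a call (adjusted p = 0.522), and the call was also lost without control replicate 2 (adjusted p = 0.0506). The call of Cst3 was lost without hydrogen replicate 1 or control replicate 2 (adjusted p = 0.0721 and 0.0639). That of Ctsd was lost without any 1 array but control replicate 3 (adjusted p = 0.0582 to 0.109), and that of Ctsc without any 1 array but control replicate 1 (adjusted p = 0.0606 to 0.105).

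**Figure D1:**
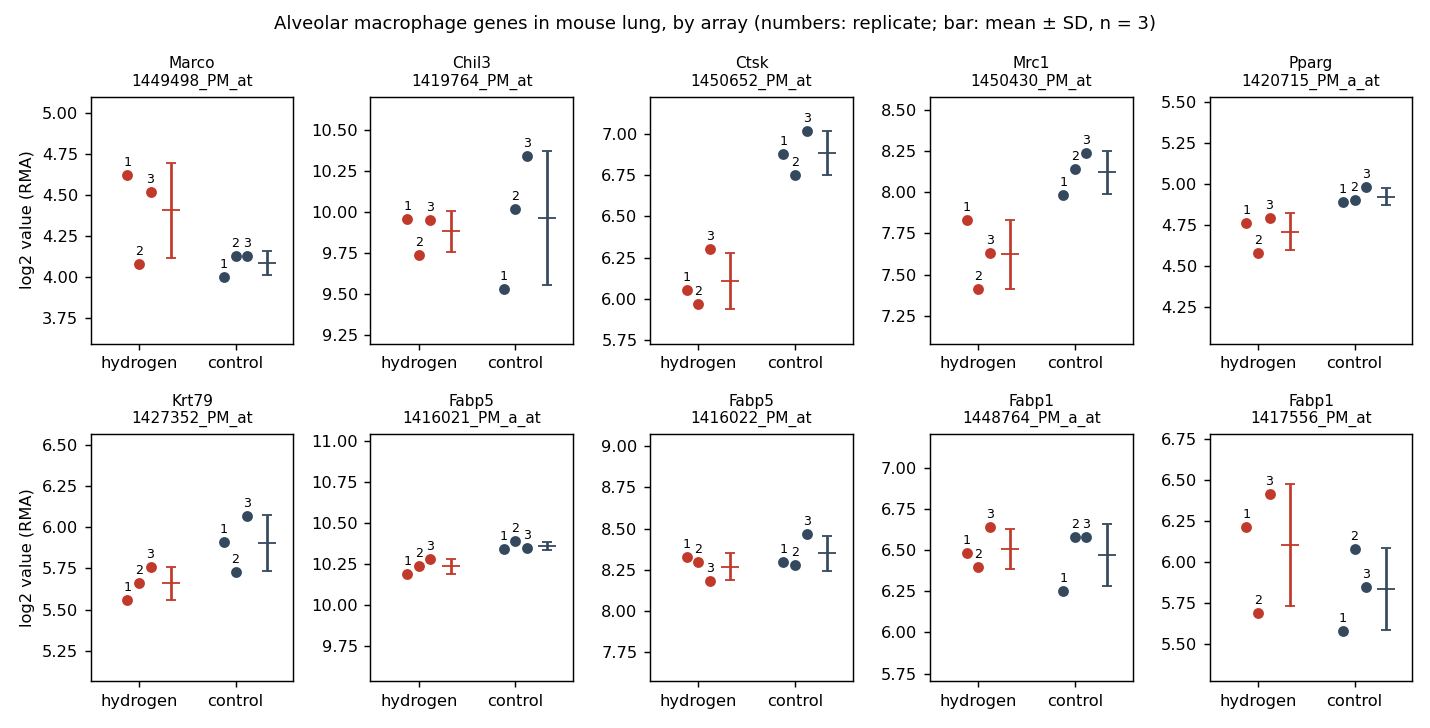
Log2 value of each of the 10 probe sets on each array, with 1 point per mouse (numbers are replicate numbers), hydrogen left of control, and the group mean with its SD at the right of each group (n = 3 each). Each panel spans 1.5 log2 units, so the panels share a scale but not an origin. For Ctsk the hydrogen values of 5.97 to 6.30 lie below the control values of 6.75 to 7.02, while for Chil3 the groups overlap.

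Of the surface receptors, Mrc1, the mannose receptor CD206 that binds glycoproteins and microbial sugars, was lower in the hydrogen group. Probe set 1450430_PM_at read 7.83, 7.41 and 7.63 in hydrogen lungs and 7.98, 8.14 and 8.24 in control lungs. The groups did not overlap, with hydrogen replicate 2 the lowest and hydrogen replicate 1 the closest to the controls. The means were 7.62 ± 0.21 in hydrogen lungs and 8.12 ± 0.13 in control lungs (SD, n = 3 each), a difference of -0.50 (SE 0.11, 95% interval -0.75 to -0.25), or a ratio of 0.709 (adjusted p = 0.0072). The median of its brightness decile was -0.23, and 15.1% of that decile were as low or lower. The call was lost after quantile normalisation (-0.27, adjusted p = 0.0935) and after loess (-0.30, adjusted p = 0.0663).

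Mrc1 is also made by interstitial macrophages and by lymphatic endothelium. Of 5 measured lymphatic endothelial markers, 3 were lower, 1 was higher and 1 was not called, with a median of -0.17, and of -0.08 after quantile normalisation and -0.06 after loess. Reln, a secreted glycoprotein of lymphatic vessels, fell by 0.50 (adjusted p = 0.000531), and Mmrn1, an extracellular protein of endothelium and platelets, fell by 0.55 (adjusted p = 0.00272). The other Mmrn1 probe set, at a dim level, differed by -0.03 without a call (adjusted p = 0.613 over probe sets). Pdpn, a membrane glycoprotein shared with alveolar type 1 cells, fell by 0.17 (adjusted p = 0.0254), and Flt4, the receptor for the lymphatic growth factor VEGF-C, rose by 0.31 (adjusted p = 0.0288). Neither Pdpn nor Flt4 was called after quantile normalisation (adjusted p = 0.261 and 0.0831). The call of Pdpn was also lost without hydrogen replicate 1 or 2 or control replicate 2 or 3 (adjusted p = 0.053 to 0.0765), and that of Flt4 without any 1 array but control replicate 3 (adjusted p = 0.053 to 0.0883). Prox1, the factor that sets lymphatic identity, was dim in every lung, with 3.44, 3.43 and 3.51 in hydrogen lungs and 3.45, 3.45 and 3.43 in control lungs. The list averaged 5.96 to 5.98 in hydrogen lungs and 6.09 to 6.21 in control lungs, and its part in the difference of Mrc1 was not tested.

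Marco, a scavenger receptor for unopsonised bacteria and particles and a defining marker of mouse alveolar macrophages, had the largest positive difference of the 10 probe sets but was not called. Probe set 1449498_PM_at read 4.62, 4.08 and 4.52 in hydrogen lungs and 4.00, 4.13 and 4.13 in control lungs. Hydrogen replicates 1 and 3 lay above every control, and hydrogen replicate 2 lay among the controls. The means were 4.41 ± 0.29 in hydrogen lungs and 4.09 ± 0.08 in control lungs (SD, n = 3 each), a difference of 0.32 (SE 0.13, 95% interval 0.03 to 0.61, adjusted p = 0.0686). Without hydrogen replicate 2 it was 0.48 and called (adjusted p = 0.00404). Marco was dim, below the median probe set of the array at 4.80, and its brightness decile had a median of 0.15. After quantile normalisation the difference was 0.20 (adjusted p = 0.272) and after loess 0.18 (adjusted p = 0.303).

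Other scavenger and phagocytic receptors were split. Of 11 measured genes, 3 were higher, 5 lower and 3 not called, with a median of -0.15, and of -0.02 after quantile normalisation and -0.04 after loess. Tlr4, the receptor for bacterial lipopolysaccharide, read 6.69, 6.52 and 6.59 in hydrogen lungs and 7.17, 7.18 and 7.14 in control lungs (difference -0.56, adjusted p = 0.000344), and after quantile normalisation it was -0.36 and still called. The other, dimmer Tlr4 probe set differed by -0.15 and was not called (adjusted p = 0.0634 over probe sets). Mertk, a receptor for apoptotic cells, fell by 0.71 and Colec12, a collectin-type scavenger receptor, fell by 0.52 (adjusted p = 0.00107 and 0.0011), and both were called after quantile normalisation and after loess. Stab1 fell by 0.39 and Scarb1 by 0.35 (adjusted p = 0.00361 and 0.00666), and both lost the call after quantile normalisation (adjusted p = 0.141 and 0.225). Siglec1, the sialic acid-binding receptor sialoadhesin, read 5.48, 5.34 and 5.30 in hydrogen lungs and 4.91, 4.80 and 4.80 in control lungs (difference 0.54, adjusted p = 0.000555), with no overlap. The Fc receptor Fcgr3 rose by 0.31 and the beta-glucan receptor Clec7a by 0.25 (adjusted p = 0.00318 and 0.0189), and the call of Clec7a was lost without hydrogen replicate 2 or 3 or control replicate 1 (adjusted p = 0.0558 to 0.0578). Msr1, a class A scavenger receptor like Marco, differed by 0.12 (95% interval -0.04 to 0.28) and was not called (adjusted p = 0.191).

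Pparg, the transcription factor that sets alveolar macrophage identity and also drives fat cell formation, was lower in the hydrogen group by a small amount. Probe set 1420715_PM_a_at read 4.76, 4.58 and 4.79 in hydrogen lungs and 4.89, 4.90 and 4.98 in control lungs. Its mean over all arrays, 4.82, was barely above the median probe set at 4.80, and every hydrogen lung read below that median. The groups did not overlap, but the highest hydrogen lung and the lowest control lung lay close together. The means were 4.71 ± 0.11 in hydrogen lungs and 4.92 ± 0.05 in control lungs (SD, n = 3 each), a difference of -0.21 (SE 0.07, 95% interval -0.37 to -0.05), or a ratio of 0.863 (adjusted p = 0.0343). Probe sets of its brightness decile had a median of 0.07, and the difference grew to -0.29 after quantile normalisation and -0.33 after loess (adjusted p = 0.0144 and 0.00829). Leaving out hydrogen replicate 1 or 2 or any 1 control ended the call, with adjusted p of 0.0517 to 0.114, and without hydrogen replicate 2 the difference was -0.15. Without hydrogen replicate 3 it was still called (-0.25, adjusted p = 0.0312).

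The fat cell genes Adipoq and Thrsp differed widely among the hydrogen lungs, with replicate 2 the lowest for both. Adipoq, the fat cell hormone adiponectin, read 7.23, 3.44 and 4.60 in hydrogen lungs and 7.27, 7.64 and 7.64 in control lungs (difference -2.43, adjusted p = 0.0279). Thrsp, a regulator of fat synthesis, read 7.76, 5.39 and 6.07 in hydrogen lungs and 8.31, 8.33 and 8.57 in control lungs (difference -2.0, adjusted p = 0.00938). Lep, the fat cell hormone leptin, at a dim level, rose by 0.17 (adjusted p = 0.032). The call of Adipoq was lost without any 1 array but hydrogen replicate 1 (adjusted p = 0.0565 to 0.08), with a difference of -1.60 without hydrogen replicate 2, and that of Lep without any 1 array but hydrogen replicate 3 (adjusted p = 0.0623 to 0.103). After quantile normalisation neither Adipoq nor Lep was called (adjusted p = 0.0511 and 0.453). Of 5 measured adipocyte markers, 2 were lower, 1 was higher and 2 were not called, with a median of -0.27, and of -0.06 after quantile normalisation. The 2 that were not called, Lipe and Retn, spanned 5.51 to 5.75 and 6.70 to 7.30 in hydrogen lungs. The list averaged 6.39, 5.03 and 5.34 in hydrogen lungs and 6.41, 6.54 and 6.60 in control lungs, so hydrogen replicate 1 was close to the controls. Hydrogen replicate 2, lowest for this list, was also the lowest hydrogen lung for Pparg, Ctsk, Mrc1, Marco, Chil3 and both Fabp1 probe sets. In hydrogen replicate 1, Pparg at 4.76 lay below every control lung. The part of fat tissue in the difference of Pparg was not tested.

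Signals and factors upstream of Pparg in alveolar macrophages moved both ways. Of 15 measured genes of GM-CSF and TGF-beta signalling, 4 were higher, 4 lower and 7 not called, with a median of 0.03, which was -0.06 with each array centred on its median. These counts are close to the shares of all genes, 26.1% higher and 26.4% lower. After quantile normalisation 6 were higher and 1 lower, and after loess 5 were higher and 1 lower, with medians of 0.14 and 0.11. Of all 45037 probe sets, 8442 were then higher and 7564 lower after quantile normalisation, and 7635 and 8283 after loess. Csf2, the gene of GM-CSF, read 5.54, 5.62 and 5.51 in hydrogen lungs and 5.44, 5.25 and 5.39 in control lungs (difference 0.20, adjusted p = 0.0371). Csf2rb2, a mouse receptor chain related to the shared beta chain, rose by 0.22 (adjusted p = 0.0301), and the shared chain Csf2rb had a difference of 0.08 without a call (adjusted p = 0.459). Csf2rb was called higher after quantile normalisation (0.31, adjusted p = 0.0323) and after loess (0.28, adjusted p = 0.0435), as were Stat5b (0.25 and 0.22) and Rxra (0.20 and 0.17), which stood at 0.03 and -0.0067 on the deposited values. Jak2, the kinase bound to that receptor, read 7.81, 7.86 and 7.90 in hydrogen lungs and 8.20, 8.17 and 8.16 in control lungs (difference -0.32, adjusted p = 0.00185). Jak2 lost its call after quantile normalisation (-0.09, adjusted p = 0.203). Stat5a, which carries the signal to the nucleus, fell by 0.23 (adjusted p = 0.0257) and lost its call in the same way (adjusted p = 0.647). Single mice decided several of these calls: Csf2 was not called without hydrogen replicate 1 or 2 or control replicate 2 or 3 (adjusted p = 0.0563 to 0.12), Csf2rb2 without hydrogen replicate 1 or 3 or control replicate 2 or 3 (adjusted p = 0.0574 to 0.101), and Stat5a without hydrogen replicate 3 or control replicate 2 or 3 (adjusted p = 0.0686 to 0.0845).

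Cebpb, a transcription factor of macrophage differentiation, fell by 0.39 at its brightest probe set (adjusted p = 0.00329), and by 0.78 at another, while the remaining probe set rose by 0.49 (adjusted p = 0.00272 over probe sets), so its probe sets disagree. Of the TGF-beta receptor chains, Tgfbr2 rose by 0.23 and Tgfbr1 fell by 0.25 (adjusted p = 0.0067 and 0.00951), and Tgfbr1 was not called after quantile normalisation (adjusted p = 0.578) and was 0.02 for the mean of its probe sets. Bhlhe41, a repressor needed for the self-renewal of alveolar macrophages, rose by 0.26 at a dim level (adjusted p = 0.00754) and lost the call after quantile normalisation (adjusted p = 0.0994). Spi1, the gene of PU.1, had a difference of 0.18 and was not called (adjusted p = 0.0804).

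**Figure D2:**
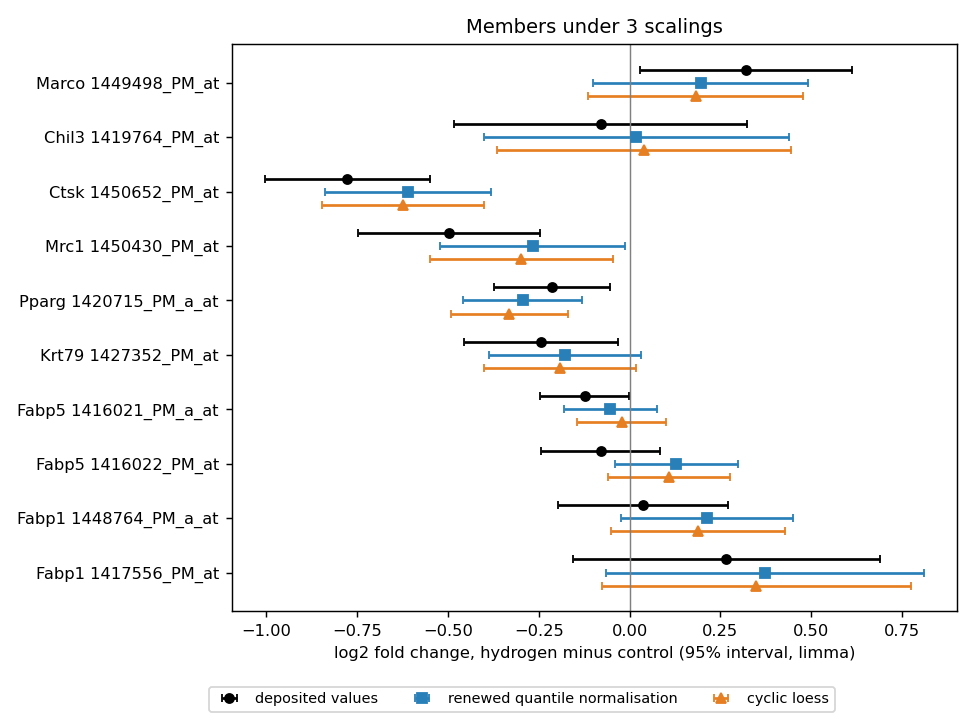
Log2 difference, hydrogen minus control, of each of the 10 probe sets with its 95% interval from limma, on the deposited values, after a renewed quantile normalisation and after cyclic loess. Ctsk lies at -0.78, -0.61 and -0.62, Mrc1 moves from -0.50 to -0.27 and -0.30, and Pparg moves away from 0.

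The lipid-binding proteins of the group, Fabp5 and Fabp1, were not called at any of their 4 probe sets. Fabp5, a carrier of fatty acids in epidermis and macrophages, read 10.19, 10.24 and 10.28 in hydrogen lungs and 10.34, 10.39 and 10.35 in control lungs at probe set 1416021_PM_a_at. These values did not overlap, yet the difference of -0.12 (SE 0.05, 95% interval -0.25 to -0.0013) was not called (adjusted p = 0.088), and the median of its brightness decile was -0.13. Its other probe set, 1416022_PM_at, read 8.33, 8.30 and 8.18 in hydrogen lungs and 8.30, 8.28 and 8.47 in control lungs, which overlapped (difference -0.08, SE 0.07, adjusted p = 0.385). The sign of that second difference turned after quantile normalisation (0.13) and after loess (0.11).

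Fabp1, the liver-type fatty acid binding protein, is abundant in liver and intestine and is also found in mouse alveolar macrophages. Probe set 1448764_PM_a_at read 6.48, 6.40 and 6.64 in hydrogen lungs and 6.25, 6.58 and 6.58 in control lungs, which overlapped (difference 0.04, SE 0.10, 95% interval -0.20 to 0.27, adjusted p = 0.791). Probe set 1417556_PM_at read 6.21, 5.69 and 6.41 in hydrogen lungs and 5.58, 6.08 and 5.85 in control lungs (difference 0.27, SE 0.18, adjusted p = 0.263). Hydrogen replicate 2 was the lowest hydrogen lung at both probe sets, as it was for Marco, and without it the second difference was 0.47 and called (adjusted p = 0.0354).

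Liver genes were higher in the hydrogen lungs. All 6 hepatocyte markers measured were called higher, with a median of 0.65 and with no overlap of the groups. Apoa1 and Fgb among them were dim, and the brightness deciles of these genes had medians of 0.08 to 0.21 over all genes. Alb, serum albumin, read 5.13, 5.72 and 5.69 in hydrogen lungs and 4.36, 4.35 and 4.39 in control lungs (difference 1.15, adjusted p = 0.000517). Apoa2 and Ttr, secreted carriers of lipid and of thyroid hormone, rose by 0.80 each (adjusted p = 0.000264 and 0.000477). The list averaged 5.04, 5.15 and 5.20 in hydrogen lungs and 4.44, 4.42 and 4.50 in control lungs. Any part of liver RNA in the values of Fabp1 was not tested.

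Other fatty acid binding proteins and lipid genes showed few calls on the deposited values. Of 6 other fatty acid binding proteins, 1 was lower, 0 were higher and 5 were not called. Fabp3, the heart-type protein, read 8.42, 7.06 and 8.32 in hydrogen lungs and 9.06, 8.97 and 8.92 in control lungs (difference -1.05, adjusted p = 0.0193), a call lost after loess (adjusted p = 0.0501) and without control replicate 1 or 2 (adjusted p = 0.0557 and 0.0537). Fabp4, the fat cell type, read 9.79, 5.04 and 7.58 in hydrogen lungs and 9.70, 9.90 and 10.00 in control lungs (difference -2.40, adjusted p = 0.0593), in the order of Adipoq. Without hydrogen replicate 2 the difference was -1.18 for Fabp4 and -0.61 for Fabp3. Of 8 measured genes of lipid uptake and PPAR response, 1 was lower and 0 were higher, with a median of 0.09, and of -0.0017 with each array centred on its median. The lower one, Angptl4, an inhibitor of lipoprotein lipase, fell by 0.48 (adjusted p = 0.0191) and was not called after quantile normalisation (-0.26, adjusted p = 0.193) or without hydrogen replicate 2 (adjusted p = 0.0591). Plin2, the coat protein of lipid droplets, had a difference of 0.19 (adjusted p = 0.0745), and the fatty acid receptor Cd36 one of 0.14 (adjusted p = 0.156). Over the whole array, 8442 of 45037 probe sets were higher and 7564 lower after quantile normalisation, and 7635 and 8283 after loess. After quantile normalisation and after loess, 4 of the 8 lipid genes were higher and 0 lower, with a median of 0.22 under both. They were Plin2 (0.29 and 0.31, adjusted p = 0.0219 and 0.0156), Nr1h3 (0.30 and 0.28, adjusted p = 0.00862 and 0.0126), Acaa2 (0.29 and 0.28, adjusted p = 0.0131 and 0.0184) and Cpt1a (0.24 and 0.24, adjusted p = 0.00974 and 0.0127). Nr1h3 encodes the sterol receptor LXR-alpha, and Acaa2 and Cpt1a encode enzymes of mitochondrial fatty acid oxidation.

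Chil3, the secreted chitinase-like lectin Ym1 that is abundant in mouse alveolar macrophages and in alternatively activated macrophages, did not differ beyond its spread. Probe set 1419764_PM_at read 9.96, 9.74 and 9.95 in hydrogen lungs and 9.53, 10.02 and 10.34 in control lungs. The control lungs spanned the hydrogen lungs on both sides. The means were 9.88 ± 0.12 in hydrogen lungs and 9.96 ± 0.41 in control lungs (SD, n = 3 each), a difference of -0.08 with a 95% interval of -0.48 to 0.32 (adjusted p = 0.733). Its sign turned after quantile normalisation (0.02), after loess (0.04) and without control replicate 3 (0.11).

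Of the 4 other chitinase-like and chitinase genes measured, 2 were lower and 1 was higher, with a median of -0.38, and of -0.19 after quantile normalisation and -0.21 after loess. Chia1, the acidic chitinase of lung epithelium, read 8.65, 8.85 and 8.91 in hydrogen lungs and 9.29, 9.36 and 9.43 in control lungs (difference -0.56, adjusted p = 0.000873). Ctbs, a lysosomal enzyme that degrades chitobiose, read 5.49, 5.05 and 5.62 in hydrogen lungs and 6.73, 6.51 and 6.39 in control lungs (difference -1.16, adjusted p = 0.000551). Its other probe sets differed by -0.35 and by -0.11, the second without a call (adjusted p = 0.0332 and 0.336 over probe sets), and the mean of its probe sets was -0.54. Chil1, a chitinase-like lectin of macrophages and epithelium, rose by 0.34 (adjusted p = 0.00758). Chil4, the close relative of Chil3, differed by -0.20 and was not called (adjusted p = 0.469). Probes for Chil3 and Chil4 may bind both transcripts, because the genes are near copies.

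Chil3 and Mrc1 are both used as signs of alternative activation, the state induced by interleukin 4. Of 10 other genes of that state, 3 were higher, 0 lower and 7 not called, with a median of 0.15. That median was 0.07 after quantile normalisation, 0.04 after loess, 0.06 with each array centred on its median and 0.01 without dim probe sets. Stat6, the transcription factor of interleukin 4 signalling, rose by 0.36 (adjusted p = 0.0105) and was not called after loess (0.25, adjusted p = 0.0509). Arg1, arginase 1, rose by 0.30 at a dim level, with 3.63, 3.60 and 3.76 in hydrogen lungs and 3.39, 3.29 and 3.41 in control lungs (adjusted p = 0.00581). Ccl24, an eosinophil chemokine, rose by 0.19 (adjusted p = 0.0388) and was not called after loess (adjusted p = 0.109) or without any 1 array but control replicate 3 (adjusted p = 0.065 to 0.124). Retnla, the secreted protein most often measured beside Chil3, differed by -0.20 and was not called (adjusted p = 0.278).

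Krt79, a keratin whose transcript is a marker of alveolar macrophages in mice and which is otherwise found in skin, was not called. Probe set 1427352_PM_at read 5.56, 5.66 and 5.76 in hydrogen lungs and 5.91, 5.73 and 6.07 in control lungs. Control replicate 2 lay below hydrogen replicate 3, so the groups overlapped. The means were 5.66 ± 0.10 in hydrogen lungs and 5.90 ± 0.17 in control lungs (SD, n = 3 each), a difference of -0.24 (SE 0.09, 95% interval -0.45 to -0.03, adjusted p = 0.0585). It was called without control replicate 2 (adjusted p = 0.0221) and with each array centred on its median (adjusted p = 0.0174). Of 8 other keratins, 2 were higher, 2 lower and 4 not called, with a median of -0.11, which turned to 0.0088 after quantile normalisation and 0.0074 after loess. Krt19, of airway epithelium, fell by 0.60 (adjusted p = 0.000291) and Krt7, of simple epithelia, by 0.21 (adjusted p = 0.0283), and Krt7 was not called after quantile normalisation (adjusted p = 0.215) or without hydrogen replicate 1 or 2 or control replicate 2 or 3 (adjusted p = 0.0585 to 0.0894). The basal cell keratins Krt14 and Krt5 rose by 0.31 and 0.29 (adjusted p = 0.00386 and 0.00411). Krt14 was dim, and its probe set is among those possibly shared with other transcripts. The other Krt14 probe set, also dim, rose by 0.18 (adjusted p = 0.0383 over probe sets). Krt80 had a difference of 0.18 without a call (adjusted p = 0.081) and was called after quantile normalisation (0.39, adjusted p = 0.00763).

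**Figure D3:**
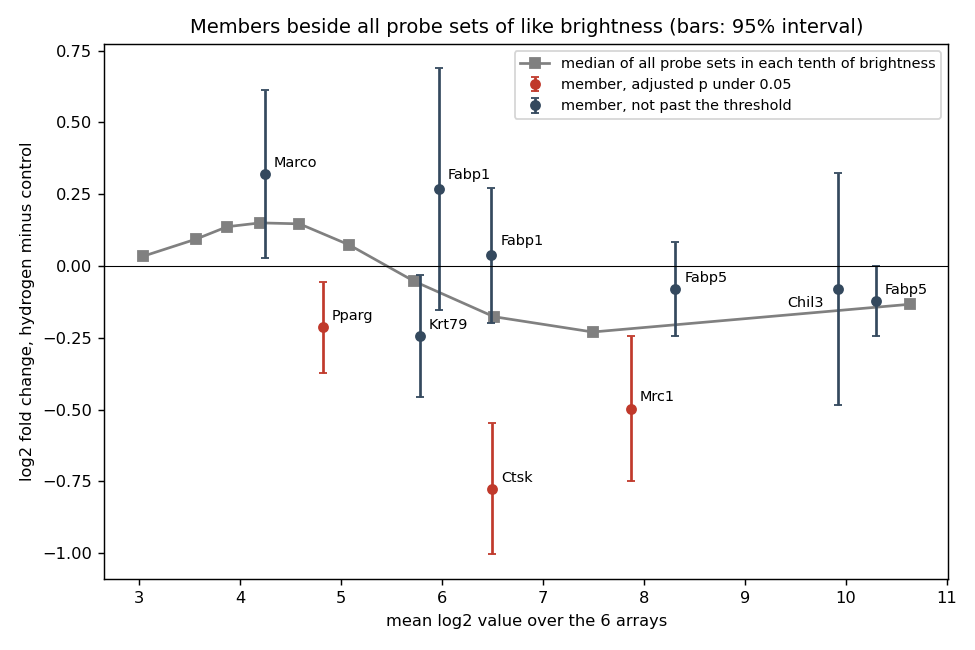
Log2 difference, hydrogen minus control, of the 10 probe sets against their mean log2 value over the 6 arrays, with 95% intervals from limma, red where the adjusted p was under 0.05. The grey line joins the median difference of all probe sets in each brightness decile, placed at the middle of that decile's range. Ctsk, Mrc1 and Pparg lie below the line with their whole intervals, and Chil3 and Fabp5 lie on it or close to it.

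Further markers of alveolar macrophages showed a like mixture. Of 14 markers listed, 10 were measured, 4 of them were lower, 0 higher and 6 not called. Of all genes, 26.4% were lower and 26.1% higher, 52.5% in all, so the share of these markers called was not above that of all genes. Ear1, Ear2, Cidec and Axl are not named for a single-gene probe set and were not analysed here. The median difference was -0.22, against 0.01 for all genes, but only -0.03 after quantile normalisation and -0.05 after loess. The list averaged 8.20, 8.08 and 8.25 in hydrogen lungs and 8.35, 8.43 and 8.51 in control lungs.

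The 4 lower markers were each called after both normalisations. Car4, a carbonic anhydrase of the cell surface that is also strongly expressed by a class of lung capillary endothelium, read 9.17, 9.34 and 9.15 in hydrogen lungs and 9.76, 9.80 and 9.80 in control lungs (difference -0.57, SE 0.07, adjusted p = 0.000432). Cd9, a tetraspanin found on many lung cells, read 10.69, 10.60 and 10.67 in hydrogen lungs and 10.93, 10.89 and 10.94 in control lungs (difference -0.27, SE 0.05, adjusted p = 0.00436). In both genes the hydrogen lungs lay below every control lung. Plet1, a membrane protein of epithelium and alveolar macrophages, read 8.57, 8.45 and 8.60 in hydrogen lungs and 8.94, 9.09 and 9.09 in control lungs (difference -0.50, SE 0.07, adjusted p = 0.000769). Another Plet1 probe set rose by 0.64 (adjusted p = 0.000982 over probe sets), so the direction of Plet1 depends on the probe set, and the mean of its probe sets was not called (adjusted p = 0.193).

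Lpl, lipoprotein lipase, an enzyme of alveolar macrophages, fat and heart muscle, read 10.05, 9.34 and 9.87 in hydrogen lungs and 10.30, 10.39 and 10.41 in control lungs (difference -0.61, SE 0.16, adjusted p = 0.0112). Hydrogen replicate 2 was again the lowest, as for the adipocyte list, whose part in this difference was not tested. Its other probe set fell by 1.10 (adjusted p = 0.00205 over probe sets).

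Siglecf and Itgax, which are used to sort alveolar macrophages, were not called. Siglecf, the sialic acid-binding receptor of these cells and of eosinophils, read 5.05, 5.18 and 5.15 in hydrogen lungs and 4.78, 4.96 and 5.32 in control lungs (difference 0.11, SE 0.12, adjusted p = 0.486). Itgax, the integrin CD11c, read 7.21, 6.99 and 7.31 in hydrogen lungs and 7.29, 7.43 and 7.30 in control lungs (difference -0.17, SE 0.09, adjusted p = 0.131), and its sign turned after quantile normalisation (0.06) and loess (0.03). In both genes the groups overlapped. Cd68, a lysosomal protein of all macrophages, differed by -0.17 (adjusted p = 0.0756), and Atp6v0d2, a subunit of the lysosomal proton pump, by -0.26 (adjusted p = 0.0565). Il18, a cytokine also made by epithelium, differed by -0.13 (adjusted p = 0.225), with a sign that turned after quantile normalisation (0.08) and loess (0.06). Abcg1, a cholesterol exporter, differed by 0.03 (adjusted p = 0.698), while its dimmer probe set fell by 0.41 (adjusted p = 0.0067 over probe sets).

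**Figure D4:**
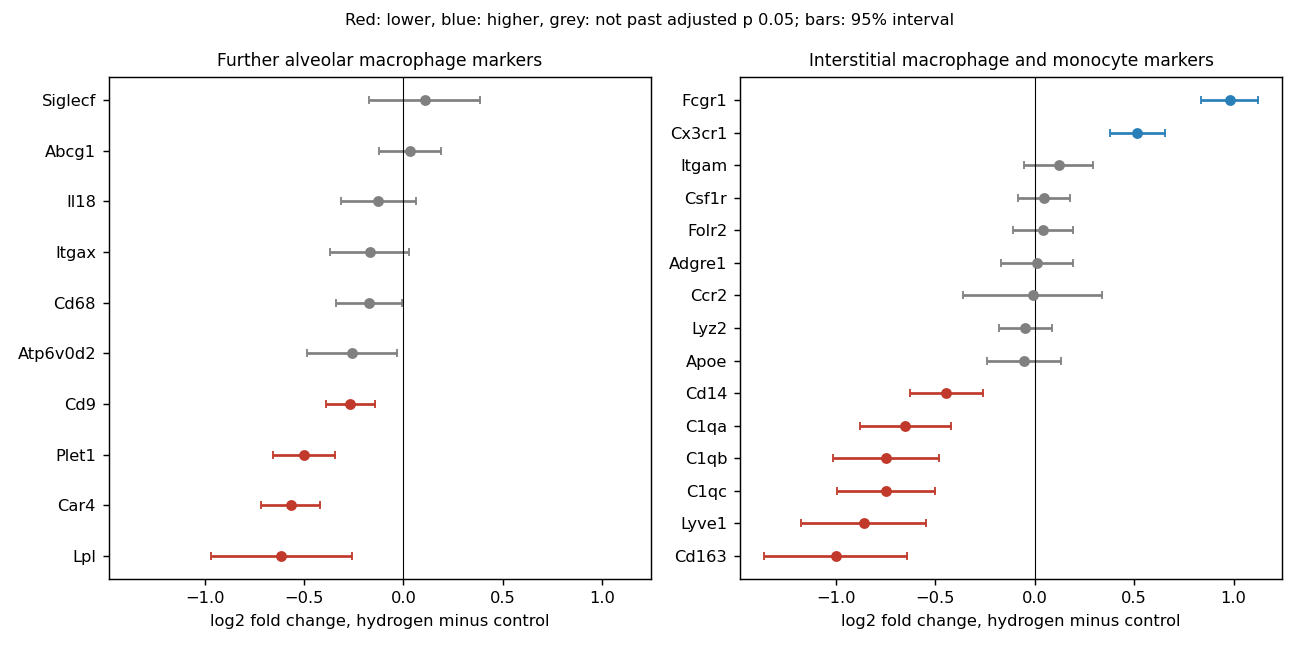
Log2 difference, hydrogen minus control, with its 95% interval from limma, of 10 further alveolar macrophage markers (left) and 15 interstitial macrophage and monocyte markers (right), each gene by its brightest probe set. On the left 4 genes were lower and 0 higher, and on the right 6 were lower and 2 higher, with Fcgr1 at 0.98 and Cd163 at -1.0 at the ends.

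Interstitial macrophages and monocytes, the other mononuclear phagocytes of the lung, had genes called in both directions. Of 15 measured markers, 6 were lower, 2 higher and 7 not called, with a median of -0.05, which turned to 0.02 after quantile normalisation. Over all genes 26.4% were lower and 26.1% higher. The complement genes C1qa, C1qb and C1qc were lower together. C1qa read 6.36, 5.95 and 6.18 in hydrogen lungs and 6.73, 6.89 and 6.82 in control lungs (difference -0.65, SE 0.10, adjusted p = 0.00126), and C1qb and C1qc fell by 0.75 each (adjusted p = 0.00132 and 0.000982). Cd163, a receptor for haemoglobin, read 3.87, 3.83 and 4.17 in hydrogen lungs and 5.10, 5.19 and 4.58 in control lungs (difference -1.0, SE 0.16, adjusted p = 0.00136) at a dim level. Lyve1, a hyaluronan receptor shared by a class of interstitial macrophages and lymphatic endothelium, fell by 0.86 (adjusted p = 0.00146), and the lipopolysaccharide co-receptor Cd14 fell by 0.44 (adjusted p = 0.00247). All 6 were called after quantile normalisation and after loess.

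Fcgr1, the high-affinity IgG receptor CD64, read 5.57, 5.63 and 5.56 in hydrogen lungs and 4.51, 4.64 and 4.67 in control lungs (difference 0.98, SE 0.06, adjusted p = 0.000169). Its other, dimmer probe set had a difference of 0.16 and was not called (adjusted p = 0.18 over probe sets). Cx3cr1, the fractalkine receptor, read 5.95, 5.99 and 5.83 in hydrogen lungs and 5.40, 5.44 and 5.38 in control lungs (difference 0.52, SE 0.06, adjusted p = 0.000467). Fcgr1 and the receptor Mertk (difference -0.71, adjusted p = 0.00107) were thus called in opposite directions. Some genes shared by macrophages at large were not called. Csf1r, the receptor of the macrophage growth factor CSF-1, differed by 0.05, the surface marker Adgre1 by 0.01 and lysozyme Lyz2 by -0.05 (adjusted p = 0.521, 0.925 and 0.522). The Lyz2 probe set is among those possibly shared with other transcripts. Cd68 differed by -0.17, also without a call, but its groups did not overlap. After quantile normalisation Csf1r was 0.25 and called (adjusted p = 0.011), while with each array centred on its median Csf1r was -0.04 and Adgre1 -0.08.

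Dendritic cells share Itgax and the response to GM-CSF with alveolar macrophages. Of 5 measured dendritic cell markers, 2 were higher and 0 lower, with a median of 0.14, and of 0.05 with each array centred on its median. Xcr1, the chemokine receptor of cross-presenting dendritic cells, rose by 0.29 at a dim level, and Flt3, the receptor of a dendritic cell growth factor, rose by 0.16 (adjusted p = 0.0061 and 0.0388). Neither was called after quantile normalisation (adjusted p = 0.0603 and 0.0866), and Flt3 was not called without any 1 array but hydrogen replicate 3 (adjusted p = 0.0638 to 0.114). Zbtb46, a transcription factor of dendritic cells, had a difference of 0.13 without a call (adjusted p = 0.249) and was called after quantile normalisation (0.32, adjusted p = 0.0287). Alveolar type 2 cells, which supply GM-CSF and the surfactant that alveolar macrophages clear, had 3 of 7 measured markers higher and 0 lower, with a median of 0.10, and of 0.0067 with each array centred on its median and 0.02 for the mean of each gene's probe sets. Etv5, a transcription factor that maintains these cells, read 9.34, 9.44 and 9.51 in hydrogen lungs and 8.99, 9.11 and 9.13 in control lungs (difference 0.35, adjusted p = 0.00319). Lpcat1, an enzyme of surfactant lipid synthesis, rose by 0.28 and Abca3, the surfactant lipid transporter, by 0.18 (adjusted p = 0.00772 and 0.0295), but Abca3 had a difference of -0.10 for the mean of its probe sets and was not called without hydrogen replicate 1 or 2 or control replicate 1 or 3 (adjusted p = 0.0673 to 0.103). Another Lpcat1 probe set rose by 0.37 with a call, while differences of 0.19, 0.12 and 0.10 at its remaining probe sets were not called.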

How the data were processed

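RNA from the lungs of 6 mice was measured, 1 array per mouse, on MG-430 PM Array Strips after amplification and biotin labelling, per the labels' protocols. The deposited values are log2 signals per probe set, to 2 decimals, made with RMA and Affymetrix Expression Console, per the submitters' processing notes. The sources used here do not give versions or say if the 6 arrays were normalised together. The table carries no detection flags, so "dim" means a mean at or below the median probe set, and levels of different probe sets were not compared. With 3 arrays a group, the number of mice sets the precision.

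The 104 control probe sets were left out, which left 45037. The platform annotation names 1 gene for 28898 of them, several for 551 and none for 15588; 28689 single-gene probe sets matched a RefSeq entry by Entrez identifier, and 0 symbols differed. The hydrogen and control arrays were fitted in R 4.3.3 by limma 3.58.1 (lmFit, eBayes without trend) with Benjamini-Hochberg adjustment over all probe sets for the members. For gene lists the adjustment was over 17097 genes, each represented by its brightest probe set. No filter was applied. The fit was tested on simulated data. Plots used Python 3.11.15 and matplotlib 3.10.9.

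The 9 members and the 16 lists, with 148 entries of which 132 were measured, were chosen with earlier results of these data known. Named were all members with every probe set, every further alveolar macrophage marker, the 2 genes with the smallest p of each other list, and Csf1r, Adgre1, C1qa, Lyz2, Sftpc, Adipoq, Acp5 and Alb. Other genes named from the lists were chosen after their values were seen. Same-numbered mice did not deviate together (correlations of 0.08, 0.03 and -0.11 for numbers 1, 2 and 3), so no pairing was used. Other settings were a replicate block, median centring, quantile normalisation, cyclic loess, array weights, a trended and robust prior, leaving out dim or possibly shared probe sets, the mean of a gene's probe sets, and leaving out each array.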

Additional observations from a re-analysis of the deposited data

How the results depend on the processing

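The calls of the 10 member probe sets were recomputed under 14 alternatives (13 for Marco, which leaving out dim probe sets removes). Ctsk was called in all 14, Mrc1 in 12 and Pparg in 9. With each array centred on its median, 5 member probe sets and 5 member genes were lower, as were 7 further alveolar macrophage markers, and the array as a whole had 6377 probe sets higher and 14571 lower, against 10956 and 10257 on the deposited values. With a trended and robust prior, 1 member probe set and 1 member gene (Marco) were higher, beside 11752 of all 45037 probe sets. Leaving out 1 array gave 0 to 2 member probe sets higher, 0 to 1 member genes higher and 0 to 1 further markers higher. The 2 were Marco and a Fabp1 probe set, without hydrogen replicate 2, where 7985 of all 45037 probe sets were higher. The 1 further marker was Siglecf, without control replicate 3, where 10097 of all probe sets were higher. The interstitial counts stayed at 5 to 6 lower and 2 to 3 higher. Signs turned for Chil3 (0.0183 after quantile normalisation, 0.0404 after loess), Fabp5 probe set 1416022_PM_at (0.129 and 0.107), Itgax (0.0578 and 0.0287), Il18 (0.0811 and 0.0602), Acp5 (0.0344 and 0.0127) and Sftpc (-0.0128 and -0.0657, and -0.07 with centring). With centring, they turned for Fabp1 probe set 1448764_PM_a_at (-0.0533, and -0.00089 with array weights), Abcg1 (-0.0567, and -0.187 for the mean of its probe sets), Csf1r (-0.0433) and Adgre1 (-0.08, and -0.0102 with array weights). Leaving out 1 array gave -0.297 to 0.108 for Chil3, -0.0733 to 0.0917 for that Fabp1 probe set, -0.0133 to 0.257 for Siglecf, -0.015 to 0.085 for Abcg1, -0.06 to 0.075 for Adgre1 and -0.102 to 0.0383 for Acp5. The cause of these changes was not tested. Of the alternative values of the other named genes, 626 kept sign and call, 38 lost a call, 16 gained one and 20 turned. With the replicate number as a block, 4 member probe sets were lower and 0 higher, since Krt79 was called (-0.24, adjusted p = 0.0391); over the array 9986 probe sets were higher and 9791 lower. The numbers do not pair the mice, with correlations of the deviations of 0.08, 0.03 and -0.11. Without detection flags, it is not known whether dim values lie above background, among them those of Marco, Cd163, Arg1, Prox1, Krt14 and Ocstamp. The same holds for Pparg, whose mean was barely above the limit for dim probe sets.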
